A study of Mus musculus with 8 samples.

Results

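The genes described here are the 4 ID proteins and 6 genes of bone morphogenetic protein (BMP) signalling, namely the ligands Bmp4 and Bmp7, the type I receptors Bmpr1a and Bmpr1b, and the inhibitory Smads Smad6 and Smad7. They were taken by gene symbol from the array annotation, which gave 15 of the 25662 probes, for 9 of the 10 genes. No probe carried the name Smad7 in the annotation used here. Of the 15 probes, 10 probes of 7 genes had a signal above background on at least 4 arrays and were tested. These are the probes of Id1, Id2, Id3, Id4, Bmp7, Bmpr1a and Bmpr1b.

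The study compared neural stem and progenitor cells (NPCs) of mouse embryos at E14.5, on a mixed C57BL/6 X 129S1/SvlmJ background. Control cells were Prmt5F/F, with Prmt5 alleles that Cre recombinase can cut but no Cre, and Prmt5-depleted cells were Prmt5F/FNes, which carry the same alleles with Cre under Nestin, a promoter active in neural progenitors. PRMT5 is an enzyme that methylates arginines symmetrically, in histones and in splicing factors among others. Each genotype has 4 Illumina bead arrays, and the controls lack Cre, so effects of Cre and of Prmt5 loss cannot be told apart. The labels do not say whether arrays of a genotype hold separate embryos or cultures, so the p-values reflect only how far these arrays varied, which may be technical.

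BMPs are secreted ligands of the TGF-beta superfamily. They bind pairs of type I and type II receptor kinases, and the type I receptors phosphorylate Smad1, Smad5 and Smad9, which enter the nucleus with Smad4. The Id genes are classical direct targets of these Smads, and Smad6 and Smad7 are induced as feedback inhibitors. ID proteins hold a helix-loop-helix (HLH) domain without a basic DNA-binding region. They bind E proteins and keep them from pairing with tissue-specific basic helix-loop-helix (bHLH) factors on DNA, and in neural progenitors they are known to hold back neuronal differentiation.

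Mean deposited intensity lay between 449 and 598 units over the 8 arrays, and precision is limited by there being 4 arrays a genotype. Values below are normalized signals on the log2 scale, and a gene was called changed at a Benjamini-Hochberg adjusted p under 0.05 in limma over all 13196 tested probes. Prmt5 itself fell 6.49-fold at its brightest probe, with no overlap between genotypes, and where its probes lie relative to the deleted part was not determined here. Of 12 stem cell and radial glial markers, 9 were detected on all 8 arrays, among them Sox2, Nes and Vim, while Pax6 and Msi1 were detected on no array and Prom1 on 1. Control 4 and Prmt5-depleted 1 and 3 stood apart from the other 5 arrays along the second principal component, which took up 10.5% of the variance and split both genotypes. The calls of all 10 tested member probes were the same without these 3 arrays.

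Id1, Id2 and Id4 were higher in Prmt5-depleted cells, Bmp7 and Bmpr1b were lower, and Id3 and Bmpr1a did not pass the test. In all, 7 of the 10 tested probes were called, 4 higher and 3 lower, where 46.7% of all tested probes were called in this comparison, 22.1% higher and 24.7% lower. By the brightest probe of each gene, 5 of 7 genes were called, against 47.8% of 9001 genes. All 10 tested probes were detected on all 8 arrays, so none was tested on account of 1 genotype alone. The genotypes did not overlap at the 7 called probes, nor at the brightest probe of the 5 called genes, and overlapped at the other 3, where 43.1% of all tested probes and 44.8% of the 9001 genes did not overlap. The counts of these genes were not tested against that background.

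**Figure D1:**
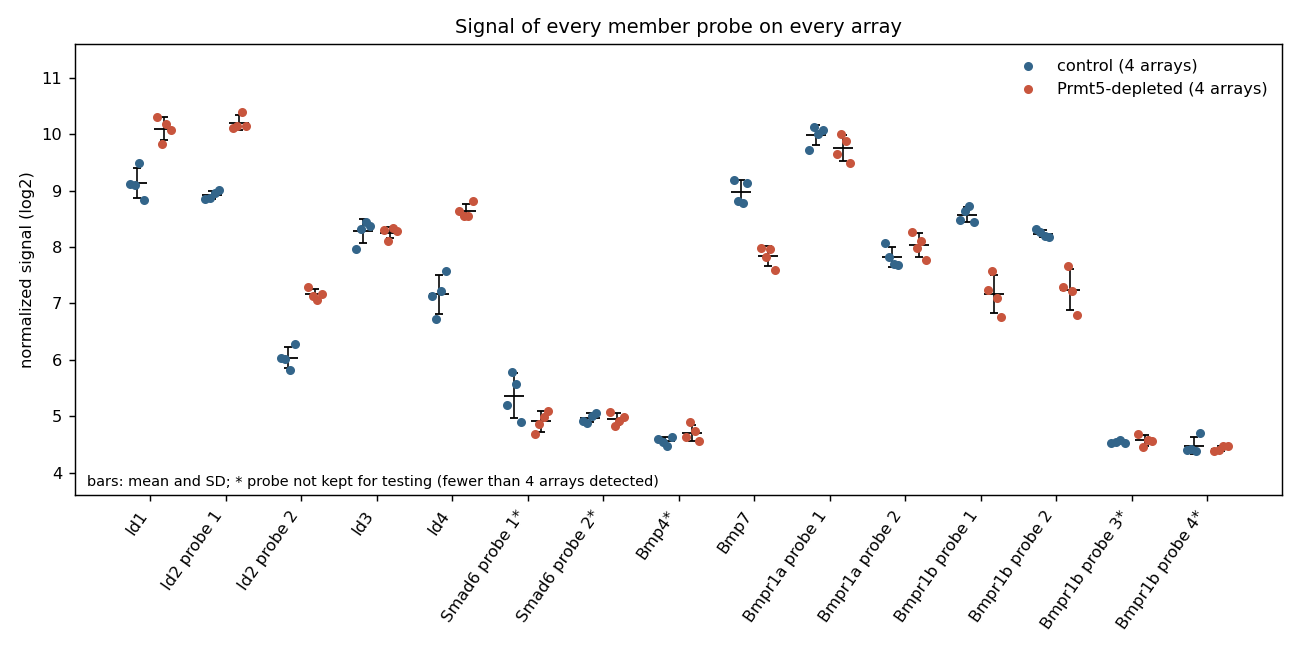
Normalized log2 signal (vertical axis) of each of the 15 probes, numbered from the brightest where a gene has several, on the 4 control and 4 Prmt5-depleted arrays (points), with the mean and SD (bars). Id1, both Id2 probes and Id4 are higher on every Prmt5-depleted array, Bmp7 and 2 Bmpr1b probes are lower on every one, and the 5 starred probes of Smad6, Bmp4 and Bmpr1b lie near background.

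The ID genes are described first. For 3 of them a promoter sequence was at hand, shown because Id2 and Id4 rose and Id3 did not, so that the regions can be read beside the values. Each run is the 300 bases from 250 before to 50 after the RefSeq transcription start, build GRCm38.p6, in the direction of the gene. Id2 lies on the minus strand at chr12:25096043-25096342, Id4 on the plus strand at chr13:48260866-48261165 and Id3 on the plus strand at chr4:136143572-136143871. Capitals mark GGCGCC, a palindrome and a GC-rich motif bound by BMP Smads, and CAGAC or its reverse complement GTCTG, which holds the core of the Smad binding element.
Id2: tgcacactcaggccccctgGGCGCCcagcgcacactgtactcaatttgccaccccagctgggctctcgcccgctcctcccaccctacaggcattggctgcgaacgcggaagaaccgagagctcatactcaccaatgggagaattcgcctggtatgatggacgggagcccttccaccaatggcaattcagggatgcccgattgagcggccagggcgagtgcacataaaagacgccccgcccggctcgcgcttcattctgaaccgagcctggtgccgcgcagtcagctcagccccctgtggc
Id4: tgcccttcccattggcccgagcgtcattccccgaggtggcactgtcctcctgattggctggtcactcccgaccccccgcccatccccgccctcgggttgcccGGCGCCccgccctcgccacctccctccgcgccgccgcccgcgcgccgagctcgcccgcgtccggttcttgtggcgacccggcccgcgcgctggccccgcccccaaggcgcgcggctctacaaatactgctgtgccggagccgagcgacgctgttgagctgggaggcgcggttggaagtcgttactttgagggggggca
Id3: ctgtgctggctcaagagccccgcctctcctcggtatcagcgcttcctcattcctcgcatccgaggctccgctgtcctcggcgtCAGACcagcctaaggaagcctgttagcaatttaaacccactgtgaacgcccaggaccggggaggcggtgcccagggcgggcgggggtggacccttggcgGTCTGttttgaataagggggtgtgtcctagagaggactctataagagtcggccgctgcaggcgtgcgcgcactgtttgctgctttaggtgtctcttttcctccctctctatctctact

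GGCGCC occurred 1 time in each of the Id2 and Id4 windows, and CAGAC in neither. The Id3 window held 2 matches of CAGAC, both strands searched, and none of GGCGCC. The window of Bmpr1a also held GGCGCC 1 time, and that gene did not pass the test. A relation between the motifs and the calls was not tested. CAGAC occurred in 2 of the 3 windows of Bmpr1b, which fell, and the Smad6 and Bmp4 windows held neither motif. Over all 32851 windows of this length in the table, 11.9% held GGCGCC and 49.6% held CAGAC. None of the 9 windows of the genes described here held both motifs. G and C made up 63.3% of the Id2 window, 73.3% of the Id4 window and 60.0% of the Id3 window. A match is a description of the letters and not a binding site. Of the 10 genes, 7 had a promoter entry, and Id1, Bmp7 and Smad7 had none.

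Id1 rose in Prmt5-depleted cells. It is a target that responds early to BMP. Its probe ILMN_2672190 read 9.12, 9.10, 9.49 and 8.84 on control arrays 1 to 4 and 10.30, 9.82, 10.19 and 10.07 on Prmt5-depleted arrays 1 to 4. Every Prmt5-depleted array lay above every control array, with control 4 the lowest of all 8. The mean went from 9.14 ± 0.27 to 10.10 ± 0.20 (SD, n = 4 each), a rise of 1.94-fold (log2 difference 0.96, standard error 0.16, limma adjusted p = 0.000391). Before normalization its deposited intensities ran from 488 to 776 in control and from 1028 to 1427 in Prmt5-depleted cells.

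Id2 rose at both of its probes. ID2 is known to be expressed in cortical progenitors and in some neurons. At the brighter probe, ILMN_1228557, the control arrays read 8.84, 8.87, 8.95 and 9.01 and the Prmt5-depleted arrays 10.12, 10.14, 10.40 and 10.15. The control arrays spanned a narrow range and all lay more than 1 log2 unit below the Prmt5-depleted arrays. The rise was 2.44-fold (log2 difference 1.28, standard error 0.11, limma adjusted p = 3.96e-06). At the dimmer probe, ILMN_2887239, values were 6.04, 6.01, 5.82 and 6.27 in control and 7.28, 7.14, 7.06 and 7.17 in Prmt5-depleted cells, a 2.18-fold rise (limma adjusted p = 2.17e-05). The probes differ in brightness and gave similar rises, with 95% intervals of the log2 difference from 1.03 to 1.54 and from 0.85 to 1.40.

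Id4 had the largest estimated rise of the 4 ID genes. ID4 is a regulator of neural progenitor proliferation and glial differentiation. Its probe ILMN_2678714 read 7.14, 6.72, 7.22 and 7.57 on the control arrays and 8.63, 8.55, 8.56 and 8.82 on the Prmt5-depleted arrays. The groups did not overlap, and control arrays spread more (SD 0.35) than Prmt5-depleted arrays (SD 0.13). The log2 difference was 1.48 with a 95% interval from 1.11 to 1.85 (limma adjusted p = 2.39e-05), larger in size than that of 94.1% of tested probes. Its interval overlaps those of Id1 and Id2, and the order of these 3 rises was not tested.

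Id3 did not pass the test. Like Id1 it is a well-known BMP target, and the pair is often expressed in the same cells. Its probe ILMN_2687169 read 7.97, 8.32, 8.45 and 8.38 on the control arrays and 8.30, 8.11, 8.33 and 8.28 on the Prmt5-depleted arrays. Control 1 was the lowest and control 3 the highest array, and all Prmt5-depleted arrays lay between them. The log2 difference was -0.02 with a 95% interval from -0.31 to 0.26 (limma adjusted p = 0.897). The probe was detected on all 8 arrays and brighter than 58.2% of tested probes, so the interval, and not a lack of signal, bounds the change.

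The change of Id3 was set against those of the other ID genes within each array. The log2 difference between genotypes was greater than that of Id3 by 0.98 for Id1, by 1.31 for Id2 at its brighter probe and by 1.50 for Id4. Each gave p = 0.0286 in a two-sided exact permutation test over the 8 arrays, the smallest that 4 against 4 allow, and 0.0343 after Benjamini-Hochberg adjustment over 6 such pairs of probes. These pairs were chosen after the values were seen.

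**Figure D2:**
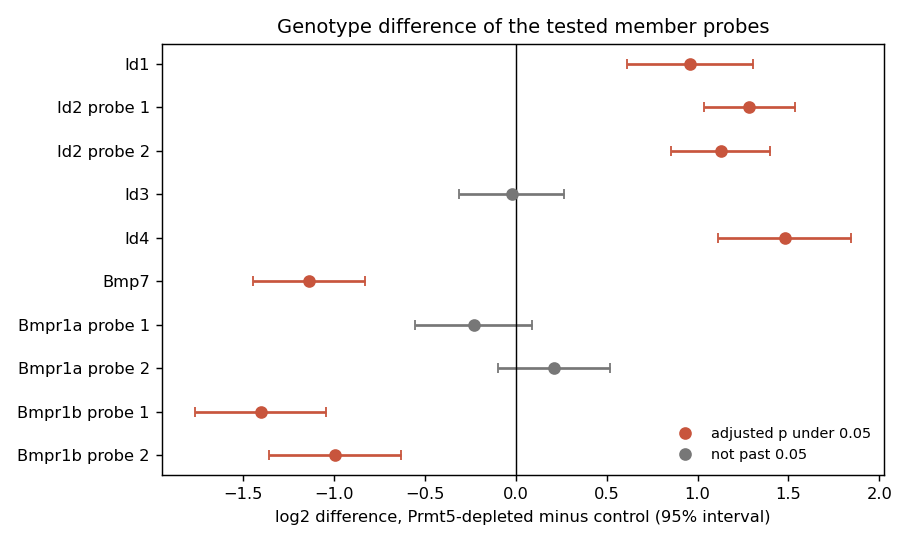
Log2 difference between genotypes (horizontal axis, Prmt5-depleted minus control) of the 10 tested probes with 95% intervals from the limma fit. The intervals of Id1, Id2 and Id4 lie above 0, those of Bmp7 and Bmpr1b below 0, and those of Id3 and both Bmpr1a probes include 0.

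Among the ligands, Bmp7 fell. BMP7 is known as a ligand of the meninges, the cortical hem and the choroid plexus, and also of neural progenitors. Its probe ILMN_2589662 read 9.18, 8.82, 8.78 and 9.14 on the control arrays and 7.99, 7.82, 7.97 and 7.60 on the Prmt5-depleted arrays. All 4 control arrays lay above all 4 Prmt5-depleted arrays. The mean went from 8.98 ± 0.21 to 7.84 ± 0.18 (SD, n = 4 each), a fall of 2.20-fold (log2 difference -1.14, standard error 0.14, limma adjusted p = 4.83e-05). In bulk RNA, fewer cells that express a gene and less of its RNA per cell cannot be told apart, here and for every gene below.

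Bmp4, a ligand of the dorsal midline, was not detected on any array. Its probe ILMN_1215252 lay between 4.48 and 4.64 in control and between 4.55 and 4.90 in Prmt5-depleted cells. A difference of Bmp4 was therefore not detectable at this signal.

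Of the type I receptors, Bmpr1b fell at both probes that gave a signal. BMPR1B is one of a pair of receptors, with BMPR1A, that carry BMP signals in neural progenitors. At ILMN_2812900 the control arrays read 8.48, 8.64, 8.73 and 8.44 and the Prmt5-depleted arrays 7.24, 7.57, 7.10 and 6.76. At ILMN_1216262 they read 8.32, 8.26, 8.20 and 8.17 against 7.29, 7.67, 7.22 and 6.79. At both probes the genotypes did not overlap, and Prmt5-depleted 2 was the highest and Prmt5-depleted 4 the lowest of its group. The falls were 2.65-fold and 1.99-fold (log2 differences -1.40 and -0.995, limma adjusted p = 3.16e-05 and 0.00043). They differed from each other by 0.41 on the log2 scale (exact permutation p = 0.0286 over the 8 arrays, adjusted 0.0343 over 6 pairs). This pair of probes was chosen after the values were seen. The other Bmpr1b probes, ILMN_1219486 and ILMN_1228799, were not detected on any array, and the annotation names the same RefSeq transcript for all 4.

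Bmpr1a did not pass the test at either probe, and the probes pointed opposite ways. At ILMN_1251119 the control arrays read 9.72, 10.13, 10.01 and 10.07 and the Prmt5-depleted arrays 9.64, 10.01, 9.88 and 9.48. At ILMN_2653312 they read 8.07, 7.83, 7.71 and 7.69 against 8.27, 7.98, 8.11 and 7.77. The genotypes overlapped at both. The log2 differences were -0.23, with a 95% interval from -0.55 to 0.09, and 0.21, with one from -0.10 to 0.52 (limma adjusted p = 0.222 and 0.25). Their disagreement, 0.44, did not pass either (exact permutation p = 0.114, and 0.114 adjusted over 6 pairs). The fall of Bmpr1b exceeded the difference of Bmpr1a by 1.17 on the log2 scale at their brightest probes (exact permutation p = 0.0286, adjusted 0.0343).

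Smad6, which competes with receptor-activated Smads, was near background. ILMN_2773835 was detected on 2 control arrays and 1 Prmt5-depleted array and read 5.19, 5.79, 5.57 and 4.90 against 4.68, 4.86, 4.99 and 5.10. The groups overlapped, and in a limma fit of all 25662 probes the log2 difference was -0.45 (adjusted p = 0.13). ILMN_3008748 was detected on no array. These signals do not allow a statement on feedback inhibitors in either direction.

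The rest of BMP signalling was measured as 5 lists of 70 other genes. Of 66 genes with a probe, 33 passed the detection filter, 13 were higher, 4 were lower and 16 did not pass the test. That is 51.5% called, where 47.8% of 9001 genes by their brightest probe were called, 23.7% higher and 24.1% lower. The median log2 difference of the 33 was 0.26, and that of all 9001 genes was -0.04. Of the 17 called genes, 4 (Gdf10, Bmp3, Gdf5 and Sostdc1) were detected on no control array and so were tested only because they were high in Prmt5-depleted cells. Without these, 13 of 29 genes were called, 9 higher and 4 lower, which is 44.8% and near the share over all genes, and the median log2 difference was 0.17. With the 4 genes at their lower bounds the median of the 33 was 0.18. A further 26 genes with a probe were detected on no array, among them Bmp2, Bmp6 and Smad9. Without Prmt5-depleted 2 or Prmt5-depleted 4, 10 or 11 of 28 genes were called, because the same 4 genes then left the test and a further 3 lost their call. Without the 3 arrays that stood apart, 10 of 26 were called. The plotted 95% intervals are not adjusted for the number of probes, so some exclude 0 where the adjusted p did not pass.

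Of the other ligands, 3 were higher and 1 was lower among 5 tested of 14, where 23.7% and 24.1% of all 9001 genes were. The 3 higher ones, Gdf10, Bmp3 and Gdf5, were tested through the Prmt5-depleted group alone, so their count is no result on direction. Gdf10, which encodes BMP3B, read 4.84, 4.92, 4.88 and 4.83 on the control arrays, all below detection, and 8.02, 8.35, 8.45 and 8.79 on the Prmt5-depleted arrays. Prmt5-depleted cells were at least 8.78-fold higher (limma adjusted p = 5.28e-08). This bound sets the bright mean against the lowest signal of a detected probe on each dim array. Bmp3, known as an antagonist within the family, was at least 1.63-fold higher, and Gdf5 at least 1.08-fold higher. Gdf9, best known as a factor of the oocyte, fell 1.64-fold (limma adjusted p = 0.00122).

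Of the other receptors and co-receptors, 3 rose and 1 fell among 5 tested of 9. Over all 9001 genes, 23.7% were called higher and 24.1% lower. Rgmb, a membrane-bound co-receptor of BMP2 and BMP4, read 5.24, 5.68, 5.89 and 5.45 on the control arrays and 6.97, 7.05, 7.09 and 7.33 on the Prmt5-depleted arrays, a 2.92-fold rise without overlap. Its second, dimmer probe rose by 0.55 on the log2 scale (limma adjusted p = 0.0206). Of the type II receptors, which also serve activin, Acvr2a rose 2.06-fold, or 1.99-fold from the detection floor, since 2 control arrays did not detect it, and Acvr2b fell 1.73-fold (limma adjusted p = 0.00307 and 0.015). The genotypes overlapped at both. Acvr1, a type I receptor, rose 1.34-fold (limma adjusted p = 0.0494), a call lost in 9 of 16 alternatives.

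Of the extracellular modulators, 3 were higher and none lower among 9 tested of 22. That is 33.3% called, against 47.8% of all 9001 genes. Sostdc1 was among the 3 only through the Prmt5-depleted group, so their count is no result on direction. Sostdc1, a secreted antagonist of BMP and Wnt, was detected on no control array and was at least 2.26-fold higher (limma adjusted p = 0.00327). It read 5.98, 7.62, 6.17 and 6.00 on the Prmt5-depleted arrays, with array 2 apart from the others. On the same arrays Ttr, a marker of choroid plexus, read 8.79, 14.41, 9.18 and 10.21, also highest on array 2. On the control arrays Ttr read 5.47, 10.10, 9.05 and 4.61, so controls 2 and 3 lay within the range of Prmt5-depleted 1, 3 and 4, while Sostdc1 was not detected there (5.07 and 4.91). The part of this signal in the Sostdc1 result was not tested. Fstl1, a secreted follistatin-like protein that binds BMP4, rose 1.40-fold, and Nbl1, a secreted BMP antagonist, rose 1.31-fold (limma adjusted p = 0.0206 and 0.0219). The Fstl1 call was lost without Prmt5-depleted 2 (limma adjusted p = 0.0519), and that of Nbl1 without control 2 (0.0683), Prmt5-depleted 3 (0.0601) or Prmt5-depleted 4 (0.0579). Both were also lost without the 3 arrays that stood apart (limma adjusted p = 0.074 and 0.13). Chosen after its value was seen, Chrd, which encodes the antagonist chordin, had a log2 difference of -0.38 (limma adjusted p = 0.129).

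**Figure D3:**
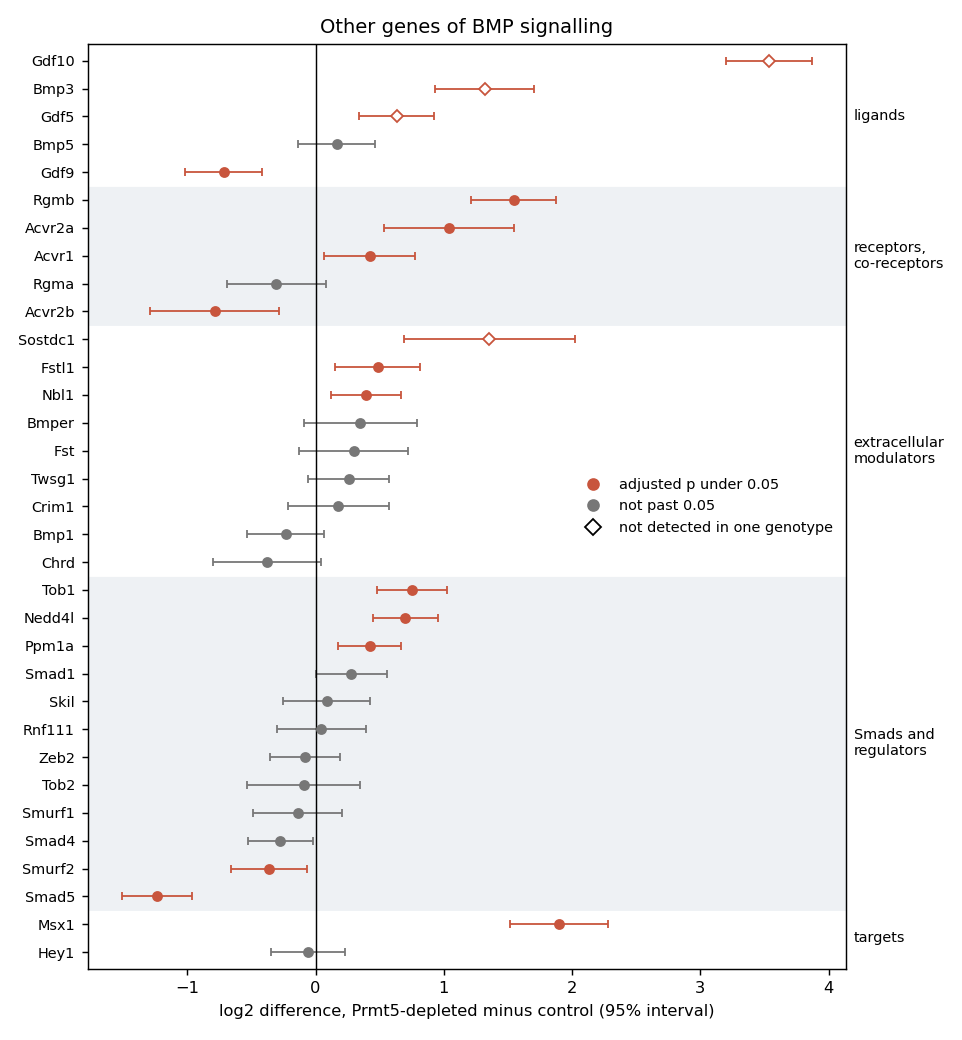
Log2 difference between genotypes (horizontal axis, Prmt5-depleted minus control) with 95% intervals for the 33 other genes of BMP signalling that were tested, by role. Open diamonds mark genes detected on no array of a genotype, for which the point is an estimate and not a bound; Gdf10 has the largest positive value and Smad5 the largest negative one.

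Of the Smads and their regulators, 3 rose and 2 fell among 12 tested of 16. That is 41.7% called, against 47.8% of all 9001 genes. Smad5, a receptor-activated Smad of the BMP branch, read 10.60, 10.87, 10.70 and 10.52 on the control arrays and 9.50, 9.59, 9.26 and 9.40 on the Prmt5-depleted arrays. The groups lay apart, and Smad5 fell 2.35-fold at its brightest probe (log2 difference -1.23, limma adjusted p = 1.07e-05) and by 0.97 and 0.96 on the log2 scale at its other probes (adjusted p = 0.00397 and 0.000163). Smad1, the second such Smad, is given here after its values were seen. Its log2 differences were 0.28, 0.62 and -0.32 at 3 probes in order of brightness (limma adjusted p = 0.0916, 0.000697 and 0.158). Both brighter probes were detected on all 8 arrays, and the dimmest, with the negative value, lay near background and was detected on 2 arrays of each genotype. Tob1, an antiproliferative protein that also restrains BMP Smads, rose 1.68-fold, Nedd4l, a ubiquitin ligase, rose 1.63-fold and Ppm1a, a phosphatase reported to act on Smads, rose 1.34-fold (limma adjusted p = 0.000395, 0.000378 and 0.0089). The Ppm1a call was lost without the 3 arrays that stood apart (limma adjusted p = 0.0615). Smurf2, a ubiquitin ligase of Smads and receptors, fell 1.29-fold (limma adjusted p = 0.0447), a call lost in 13 of 16 alternatives.

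Of other genes known to respond to BMP, 1 of 2 tested of 9 was called, where 47.8% of all 9001 genes were. Msx1, a homeobox gene of the dorsal midline, read 5.43, 4.80, 5.15 and 4.63 on the control arrays, where only array 1 detected it, and 6.72, 6.92, 6.88 and 7.10 on the Prmt5-depleted arrays. The estimated rise was 3.73-fold, or 3.02-fold from the detection floor (limma adjusted p = 4.56e-06). Hey1, named after its value was seen, had a log2 difference of -0.06 (limma adjusted p = 0.733).

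Gdf10, Msx1 and Bmp7 can also mark tissue beside the cortex, so marker lists of other cell types were read on the same arrays. Of 3 tested markers of choroid plexus and cortical hem, Otx2 was at least 3.70-fold higher and Rspo3 rose 6.17-fold, while Ttr, named after its value was seen, had a log2 difference of 3.34 with wide spread (limma adjusted p = 0.0587). Folr1, Clic6, Kcne2 and Wnt2b did not pass the detection filter, and the summed linear signal of the tested 3 was 123 to 1204 in control and 1147 to 22127 in Prmt5-depleted cells. All 4 tested markers of meninges and mesenchyme were higher, with summed signals of 169 to 186 and 575 to 924, and Dcn rose 6.09-fold. Among them Lum was at least 3.55-fold and Foxc1 at least 1.06-fold higher, and Twist1 rose 1.30-fold, while Col1a1, Col1a2, Col3a1 and Pdgfrb did not pass the filter. Of 7 endothelial genes with a probe only Esam was tested and rose 2.12-fold (1.75-fold from the floor), and Pecam1, Cdh5, Tek and Emcn were detected on no array. Of 5 microglial genes with a probe only Aif1 was tested (limma adjusted p = 0.0792), and Itgam, Tyrobp and Ptprc were detected on no array. Lum, Foxc1, Otx2 and Aif1 were detected on no control array and were tested through the Prmt5-depleted group alone. The counts and sums that hold Lum, Foxc1 or Otx2 are therefore no result on direction. Ttr, which was not called, read 14.41 on Prmt5-depleted 2 and made up most of the highest choroid plexus sum. The part of these cells in the differences of Gdf10, Msx1, the ID genes and Bmp7 was not tested.

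Markers of neural cell types moved too. Beside these counts and those of the last paragraph, 23.7% of all 9001 genes were called higher and 24.1% lower. Among the 9 tested stem cell and radial glial genes, 5 fell and 2 rose, with Sox2 falling 2.32-fold and Vim rising 1.46-fold, and summed signals were 34731 to 39252 in control and 33121 to 36398 in Prmt5-depleted cells. Of 11 tested neuronal markers 10 rose, with Tbr1 at 8.10-fold, and the sums of the 11 were 7931 to 8687 and 22923 to 25546. Tubb3, named after its value was seen, was near background with a log2 difference of -0.18 (limma adjusted p = 0.285). Neurod6, Snap25 and Nefl were detected on no array. Of 8 tested oligodendrocyte lineage markers 7 fell and Mbp rose, Pdgfra being at least 30.6-fold lower and below detection on every Prmt5-depleted array, with sums of 35593 to 39698 and 23355 to 27700. Of 5 tested astrocyte markers 3 rose, Clu by 10.1-fold, and the sums overlapped, at 3139 to 5318 and 4264 to 5657. Summed signals follow the brightest genes of a list and do not measure the amount of a cell type. The brightest were Slc1a3 and Vim for stem cells and radial glia. For the oligodendrocyte lineage it was Olig1 (mean 15.08 in control, 14.61 in Prmt5-depleted cells), and for astrocytes Aldoc (11.70 and 11.33). Named after their values were seen, Aldoc had a log2 difference of -0.38 (limma adjusted p = 0.0724), Aqp4 was detected on 3 control arrays and no Prmt5-depleted array, and Gfap was detected on no array. Since ID genes and Bmpr1b are expressed in several of these cell types, changed proportions of cells and changed expression cannot be told apart.

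ID proteins act through E proteins and neural bHLH factors, so these were read as the next group. Of the E proteins, Tcf12 fell 1.74-fold, from 9.58, 9.50, 9.41 and 9.41 on the control arrays to 8.62, 8.75, 8.75 and 8.62 (limma adjusted p = 9.77e-05). A second, dimmer probe of Tcf12 had a log2 difference of -0.51 (limma adjusted p = 0.0883). Tcf4, named after its value was seen, had a log2 difference of 0.37 with overlapping groups (limma adjusted p = 0.0871), and no probe carried the name Tcf3.

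Among 8 tested neural bHLH genes, 5 were called lower and 2 higher, where 24.1% and 23.7% of all 9001 genes were. The Notch effectors Hes5 and Hes1 fell 8.79-fold and 2.63-fold, and Olig2, a factor of oligodendrocyte and motor neuron progenitors, fell 3.22-fold (limma adjusted p from 5.28e-08 to 0.00042). Neurod1, a factor of neuronal differentiation, was at least 2.37-fold higher, as no control array detected it, and Neurod2 rose 2.01-fold. Neurod1 was thus tested through the Prmt5-depleted group alone. Neurog2, named after its values were seen, fell 2.62-fold at its brighter probe (limma adjusted p = 0.00355). There it read 6.83 on control 1, against 8.30 to 8.44 on the other controls and 6.11 to 6.83 on the Prmt5-depleted arrays. At its dimmer probe the log2 difference was -0.35 (limma adjusted p = 0.372). Hes1 and Hes5 are also on the stem cell list and Olig1 and Olig2 on the oligodendrocyte list.

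The TGF-beta and activin branch, which signals through Smad2 and Smad3 in place of Smad1, Smad5 and Smad9, was measured in 16 genes of 20. Of these, 6 were called higher and 4 lower, where 23.7% and 24.1% of all 9001 genes were, and the median log2 difference was 0.07. The latent TGF-beta binding protein Ltbp1 rose 2.54-fold and its relative Ltbp4 fell 3.01-fold. The ligand Tgfb2 rose 1.91-fold, and Inhbb, a subunit of activin B, fell 2.17-fold (limma adjusted p from 3.86e-05 to 0.000407 for these 4).

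**Figure D4:**
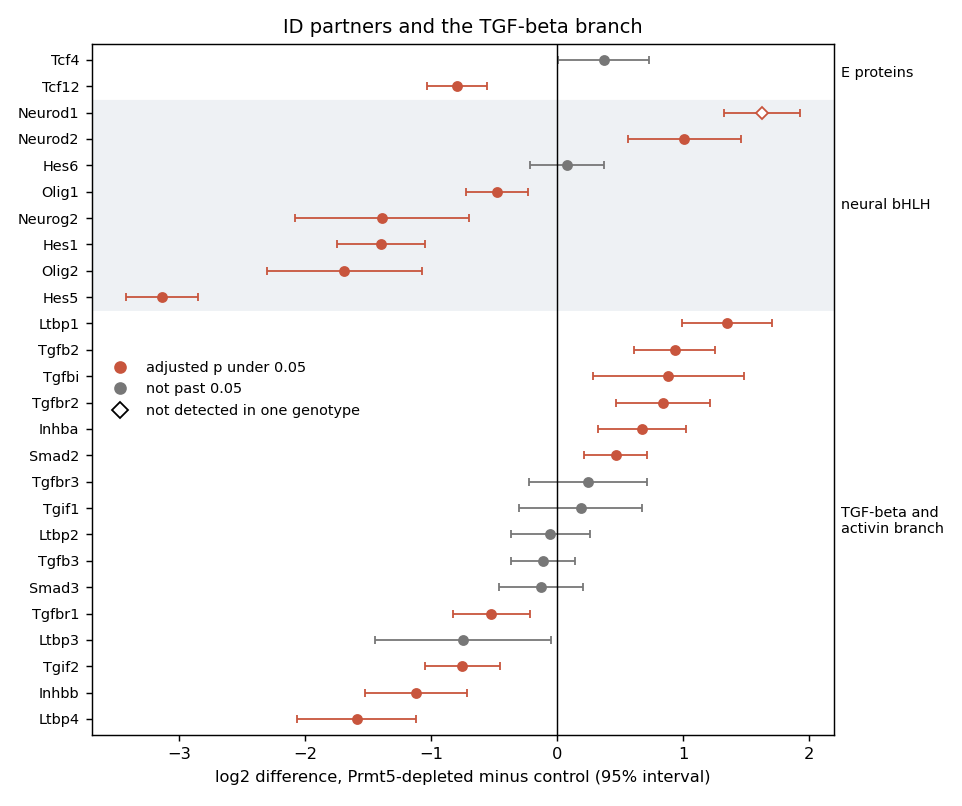
Log2 difference between genotypes (horizontal axis, Prmt5-depleted minus control) with 95% intervals for E proteins, neural bHLH genes and the TGF-beta and activin branch. Tcf12 lies below 0 and the interval of Tcf4 reaches close to 0, Hes5 has the largest negative value, and Neurod1, detected on no control array, is drawn as an open diamond.

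Profiles over the arrays most like those of the ID genes were found by the root mean square difference over the 8 arrays, after each gene was set to its own control mean. For Id2 the nearest of 9000 other genes were Prmt2, an arginine methyltransferase, Kcnf1, a potassium channel subunit, and Bid, a pro-apoptotic BH3 protein, at 0.09, 0.09 and 0.10 log2 units, where the median gene was at 0.97. For Id1 they were Rbms3, Gpr135 and Ppargc1a, at 0.14, 0.14 and 0.15 (median 0.78). For Id4 they were Mapkapk3, Rasl10b and Emc9, at 0.16, 0.16 and 0.17 (median 1.12). For Id3 they were Amz2, Exog and Ncan, each at 0.07 (median 0.37). The 4 ID genes shared none of these neighbours. The distance depends on the size of the genotype difference, whose estimates differed between the ID genes, so no conclusion is drawn from this.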

How the data were processed

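Expression was measured on 8 Illumina MouseRef-8 V2 arrays, 4 a genotype. Per the labels, RNA was taken with Trizol and RNeasy and amplified to biotin-labelled cRNA. The authors deposited non-normalized bead intensities with a detection p-value for each of 25662 probes, per the file headers. The authors' separate value table equalled these intensities after quantile normalization, to within 3.64e-12 units, and served as an alternative. The detection p-values were used as deposited.

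Intensities were background-corrected, quantile-normalized and log2-transformed with neqc (limma 3.58.1, R 4.3.3, offset 16). Probes with a detection p-value under 0.05 on at least 4 arrays were kept, 13196 in all. Genotypes were compared with limma (lmFit and eBayes) and Benjamini-Hochberg adjustment over all kept probes, and a gene was represented by its brightest kept probe. Probes were named from the platform annotation, updated through RefSeq gene tables (GRCm38.p6): 23943 had 1 symbol, 1719 had none, and 23927 matched by Entrez ID. The fit was also run on simulated data with independent noise and few changed probes, unlike these arrays, so no conclusion is drawn from that run.

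The genes and lists were chosen with earlier results of these data known. Named were all probes of the 10 genes, Prmt5, up to 4 called genes of each list with the smallest adjusted p, up to 2 called against most of their list, and the 3 nearest profiles of each ID gene. Others are marked where named. Alternatives were the background correction, offset, scaling, detection filter, replicate block, the arrays that stood apart, probe summary and each array left out. Promoter sequences are RefSeq's, build GRCm38.p6.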

Additional observations from a re-analysis of the deposited data

Results flagged for a closer look

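In 11 of 126 groups of 4 arrays, from 63 probes, 1 array lay far from the other 3 by Dixon's test, where chance gives about 6.3. Of the ID and BMP genes, Id2 at its brighter probe read 10.40 on Prmt5-depleted 3, against 10.12 to 10.15 on the others. Prmt5 itself read 10.02 and 9.64 at its brighter probes on control 1, below the other controls.

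Of the BMP regulators, Sostdc1 read 7.62 and Tob1 9.64 on Prmt5-depleted 2, both above the rest of their group. Among the cell type markers, Sox2 read 10.91 and Rspo3 5.56 on control 1, Vim 14.08 on Prmt5-depleted 1, Tbr1 6.196 on control 4, Ugt8a 8.02 on control 2 and Foxc1 5.67 on Prmt5-depleted 4. Rspo3 was below and the other 5 above the rest of their group. The causes were not tested.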

How the results depend on the processing

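The 7 called probes of the ID and BMP genes kept their direction and call in all 112 checks, with adjusted p up to 0.00948 for Id1. The 3 probes that were not called stayed so, and Id3 changed sign in 3 of its alternatives. Its log2 difference was 0.0340 without control 3, 0.01 without control 4 and 0.02 without Prmt5-depleted 2, within a range of -0.127 to 0.0340 when single arrays were left out. Leaving out single arrays gave 7 called probes and 5 called genes each time, 10 to 16 other BMP pathway genes (17 with all arrays) and 5229 to 6062 probes of the array. Without control 4 and Prmt5-depleted 1 and 3, 10 pathway genes were called, 8 of them shared, and 5 of the 9 lost had left the tested set. With the replicate number as a block, 7 member probes, 15 pathway genes and 5516 probes were called. After group means were taken out, same-numbered arrays correlated between -0.37 and 0.24. So few values cannot decide whether the numbers pair the samples. Of 780 checks of other called genes, 42 lost the call and none turned. Alternatives in which a gene left the tested set are not counted there. Gdf10, Bmp3, Gdf5 and Sostdc1 thus had 11 checks each, where genes that never left had 16. Signals near background leave changes of Smad6 and Bmp4 undetectable here.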

Other observations

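Some extracellular BMP antagonists lay at the edge of detection and were read only in the fit of all 25662 probes. Nog, which encodes the antagonist noggin, was detected on 2 control arrays and no Prmt5-depleted array, and was at least 1.075-fold lower in Prmt5-depleted cells (limma adjusted p = 0.00244). Grem1, which encodes gremlin, was detected on no control array and 3 Prmt5-depleted arrays, and was at least 1.08-fold higher in Prmt5-depleted cells (limma adjusted p = 0.0498). Bmpr2, the type II BMP receptor, was detected on at most 3 arrays at either probe, with log2 differences of -0.17 and -0.08 (limma adjusted p = 0.194 and 0.828). These genes were named after their values were seen.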
